A study of Mus musculus with 8 samples.

Results

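The genes described here are 48 genes of DNA replication and mitosis, 24 of each, read on arrays in the mouse macrophage line RAW264.7 (strain Balb/c). They were picked by gene name, with earlier results of these data known. Of the 48 names, 43 had at least 1 probe among the 17889 gene names of the array, with Cdk1 read under its older name Cdc2a and Cdc45 under Cdc45l, and Gins1, Gins2, Aurkb, Mki67 and Kif20a were not analysed here. Of the 43, 39 passed the detection filter (21 replication and 18 mitosis genes, of 8145 genes tested), and Pola1, Ccnb2, Bub1 and Cenpe were detected on 0 of the 8 arrays. All cells had been transfected with small interfering RNA (siRNA) 24 h before RNA was taken. In the scrambled group the siRNA was a scrambled control and in the Ypel5 siRNA group it was 1 sequence specific for Ypel5. There were 4 arrays per group, of the Illumina bead type, read from biotinylated cRNA. The labels disagree on the replicates. The descriptions number the arrays of each group 1 to 4, as is done here, but the source names give scrambled arrays 1, 3 and 4 the same replicate number and likewise Ypel5 siRNA arrays 2, 3 and 4. Nothing in the labels states that replicates were separate cultures, and some arrays may be repeat runs of 1 sample, so n counts arrays, and the p-values cover the spread among these arrays alone, which may be technical.

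Cells copy their DNA in S phase and divide it in mitosis, and each step has its own set of genes. Licensing factors load the MCM helicase onto origins, cyclin E kinase and Cdc45 with the GINS complex start it, and polymerases on the sliding clamp PCNA copy both strands. Mitosis is driven by cyclin B with Cdk1 and by the Plk1 and Aurora kinases, is held back by the spindle checkpoint and ends with cytokinesis at the spindle midzone. Many replication genes are known targets of E2F factors, which RB restrains, and many mitosis genes are known to be controlled through a promoter element called the cell cycle genes homology region (CHR). RAW264.7 is a transformed line that proliferates in culture, unlike most tissue macrophages. YPEL5 protein has been placed at the centrosome, the mitotic spindle and the midbody in cultured primate cells.

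Ypel5 itself was detected on 0 of the 8 arrays, with mean log2 intensities of 4.70 (scrambled) and 4.79 (Ypel5 siRNA) (limma adjusted p = 0.768 over all probes), so the arrays could not show whether its mRNA was lowered. Of 10 macrophage markers 8 were detected on all 8 arrays, Itgam on 1 and Fcer1g on 0. Of 9 markers of fibroblast, epithelial, lymphoid and endothelial cells, 8 had a probe and each was detected on 0 arrays. Both arrays of replicate 1 stand apart in their detection p-values, which take 101 distinct values on each, against 749 to 762 on the other 6 arrays. An array detected 11249 to 11612 of its 25697 probes, and precision is limited by how many arrays there were.

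The promoters of both gene sets are shown first because they differ in how often they hold the letters of elements that known regulators bind. RefSeq promoter windows (GRCm38.p6, 250 bases before to 50 after a start site) were matched for 20 replication and 20 mitosis genes of the 48. They were searched on both strands for an E2F core (TTNNCGC with G or C at each N), for CHR elements (TTTGAA or TTCGAA) and for CCAAT boxes (CCAAT). The last letters of a reversed E2F core can overlap a CCAAT box. The windows of Kif23 and Plk1 are printed as mitosis genes with a CHR element, and those of Mcm5 and Cdc6 as replication genes with E2F cores. Capitals mark the matches.
Kif23 (chr9:61946750-61947049, minus strand): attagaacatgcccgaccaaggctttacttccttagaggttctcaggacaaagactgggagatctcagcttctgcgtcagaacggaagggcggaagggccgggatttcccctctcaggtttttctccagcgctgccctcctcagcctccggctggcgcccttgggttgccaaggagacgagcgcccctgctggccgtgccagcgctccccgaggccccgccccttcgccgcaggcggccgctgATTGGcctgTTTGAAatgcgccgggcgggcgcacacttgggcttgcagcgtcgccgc
Plk1 (chr7:122159185-122159484, plus strand): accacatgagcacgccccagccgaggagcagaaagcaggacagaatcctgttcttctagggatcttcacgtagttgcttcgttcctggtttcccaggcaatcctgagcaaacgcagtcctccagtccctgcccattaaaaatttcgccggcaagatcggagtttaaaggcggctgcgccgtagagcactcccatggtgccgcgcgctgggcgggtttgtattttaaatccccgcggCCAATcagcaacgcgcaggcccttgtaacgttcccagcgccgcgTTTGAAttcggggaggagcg
Mcm5 (chr8:75109259-75109558, plus strand): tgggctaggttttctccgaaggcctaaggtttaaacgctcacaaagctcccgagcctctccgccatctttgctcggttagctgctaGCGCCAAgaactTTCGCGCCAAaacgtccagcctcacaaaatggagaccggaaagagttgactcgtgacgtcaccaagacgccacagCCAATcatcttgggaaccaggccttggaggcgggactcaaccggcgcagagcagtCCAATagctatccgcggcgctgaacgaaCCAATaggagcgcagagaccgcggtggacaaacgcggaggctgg
Cdc6 (chr11:98907901-98908200, plus strand): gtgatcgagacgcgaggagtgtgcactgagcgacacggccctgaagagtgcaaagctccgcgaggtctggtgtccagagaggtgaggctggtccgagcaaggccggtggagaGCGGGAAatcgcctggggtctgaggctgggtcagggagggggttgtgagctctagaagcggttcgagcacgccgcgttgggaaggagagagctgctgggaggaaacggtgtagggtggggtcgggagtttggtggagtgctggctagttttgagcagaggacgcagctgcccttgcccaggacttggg

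In Kif23 the CHR letters began 2 bases after the start site, with a CCAAT box on the opposite strand beginning 7 bases before it. In Plk1 they began 30 bases after the start site. Mcm5 held 3 E2F cores, of which 2 overlapped, and 3 CCAAT boxes, and Cdc6 held 1 E2F core and no other searched element. An E2F core was found in 16 of 25 windows of replication genes (64.0%), in 3 of 21 windows of mitosis genes (14.3%) and in 9.57% of all 32851 windows. A CHR element was found in 17 of 21 windows of mitosis genes (81.0%), in 5 of 25 windows of replication genes (20.0%) and in 19.2% of all windows. CCAAT boxes were found in 90.5% of mitosis, 56.0% of replication and 37.4% of all windows. Several genes had more than 1 window, and among these only the windows of Prc1 overlap. Counted by gene, 13 of 20 replication genes had an E2F core and 16 of 20 mitosis genes a CHR element. Of 24 CHR matches in mitosis genes, 18 began within 100 bases of the start site. Over the 24 the median position was -18.5 bases from it. These counts hold the same Prc1 element at both -30 and -5, since it lies in both of the overlapping windows. These are matches of letters and not shown sites, and no test was made. Ccne1, E2f1, Rfc5, Birc5 and Nusap1 held 0 of the searched elements in these windows.

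**Figure D1:**
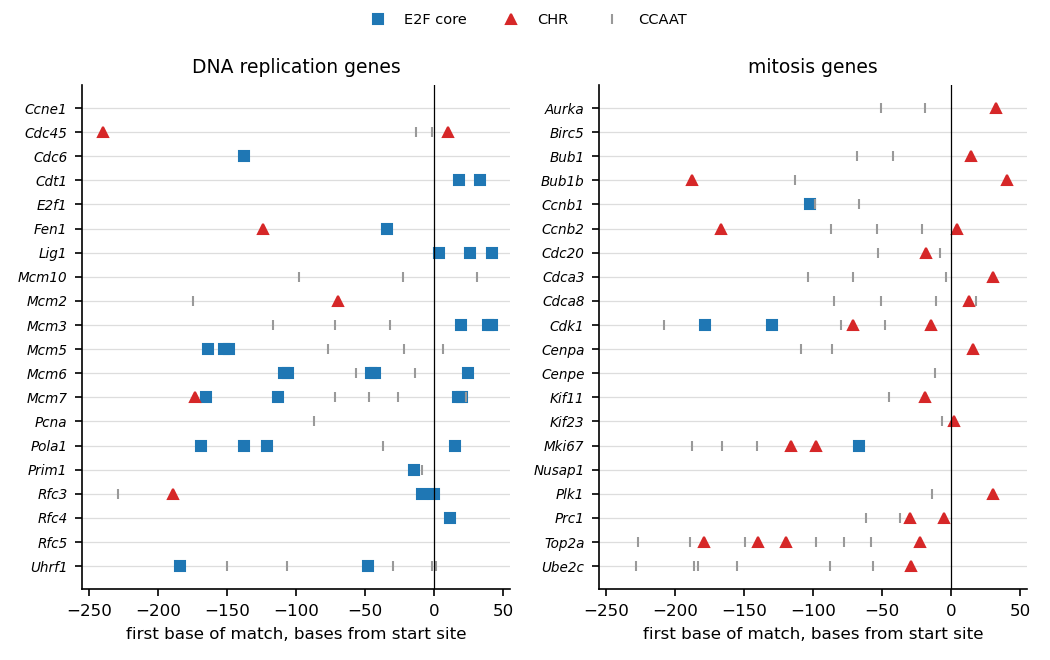
Positions of E2F cores (blue squares), CHR elements (red triangles) and CCAAT boxes (grey ticks) in promoter windows of 20 replication genes (left) and 20 mitosis genes (right). The horizontal axis gives the first base of the match in bases from the start site (vertical line), and matches in several windows of a gene share its row. E2F cores lie mainly in the left panel and CHR elements mainly in the right one, where 18 of 24 matches begin within 100 bases of the start site. The CHR matches of Prc1 are the same element seen from overlapping windows.

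After the Ypel5 siRNA 1 of the 39 measured genes (2.56%) passed a limma adjusted p of 0.05. This call was lost in 11 of 19 alternatives of the processing. Kif23, the kinesin motor of centralspindlin at the spindle midzone, which cells need for cytokinesis, fell to 0.828 times its scrambled level, and no member rose. Of 21 replication genes 0 rose and 0 fell, and of 18 mitosis genes 0 rose and 1 fell. Across all 8145 genes 4.95% passed the same limma adjusted p of 0.05, 2.96% higher and 1.99% lower, so 1 of 18 (5.56%) is a share near the background. At an unadjusted p under 0.05 there were 4 members (10.3%), of which 2 were higher (Cdc6 and Ccne1) and 2 lower (Cdc45 and Kif23), against 21.6% of all genes. The arrays of the groups did not overlap for 2 members (5.13%), Kif23 and Cdc6, against 15.2% of all genes (7.29% lower and 7.92% higher). RNA was taken from whole cultures, so a smaller share of cells in a cell cycle phase and less RNA per cell cannot be told apart.

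The median log2 difference, Ypel5 siRNA minus scrambled, was 0.024 over the replication genes and -0.00031 over the mitosis genes, beside 0.0010 over all genes tested. The medians of the sets therefore differed by 0.025. The SD between arrays of a group in the per-array difference of the sets was 0.031. This SD describes single arrays and not a difference between groups, so it cannot show whether 0.025 exceeds the spread. The difference between the sets was not tested. Of the replication genes 13 of 21 lay above 0, and of the mitosis genes 9 of 18. The replication genes ran from -0.13 (Cdc45) to 0.18 (Ccne1), and the mitosis genes from -0.27 (Kif23) to 0.32 (Ube2c). The median size of the difference, whatever its sign, was 0.048 over the 39 genes and 0.096 over all genes, with median SE of 0.055 and 0.077. The probes of the 39 genes were detected on all 8 arrays in each case, against 90.4% of all genes tested. Among the 7364 genes detected on all 8 arrays the median size was 0.091 and the median SE 0.073. The median size was also small over 35 other replication genes (0.047), 32 other mitosis genes (0.049) and 8 macrophage markers (0.039). Over 17 genes of G1 control it was 0.15.

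The 95% interval of the difference lay within log2 0.5 of 0 for 36 of the 39 genes (92.3%), against 79.6% of all genes and 86.3% of those detected on all arrays. It lay within log2 0.25 for 28 (71.8%), against 37.8% and 41.7%. A change of log2 0.5 or more was therefore outside the interval of 20 of 21 replication and 16 of 18 mitosis genes. The genes with wider intervals were Prim1, a primase subunit (-0.74 to 0.52), Ccna2, cyclin A2 (-0.38 to 0.62), and Ube2c, the ubiquitin-conjugating enzyme of the anaphase-promoting complex (-0.25 to 0.90). Their probes had mean intensities of 249, 266 and 401 before normalization, where the median over all probes of an array was between 181 and 226. Narrow intervals were not particular to the 39 genes. The share within log2 0.25 was 71.4% of 35 other replication genes and 75% of 8 macrophage markers. It was 50% of 32 other mitosis genes and 29.4% of 17 genes of G1 control. None of these shares was matched for probe brightness.

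**Figure D2:**
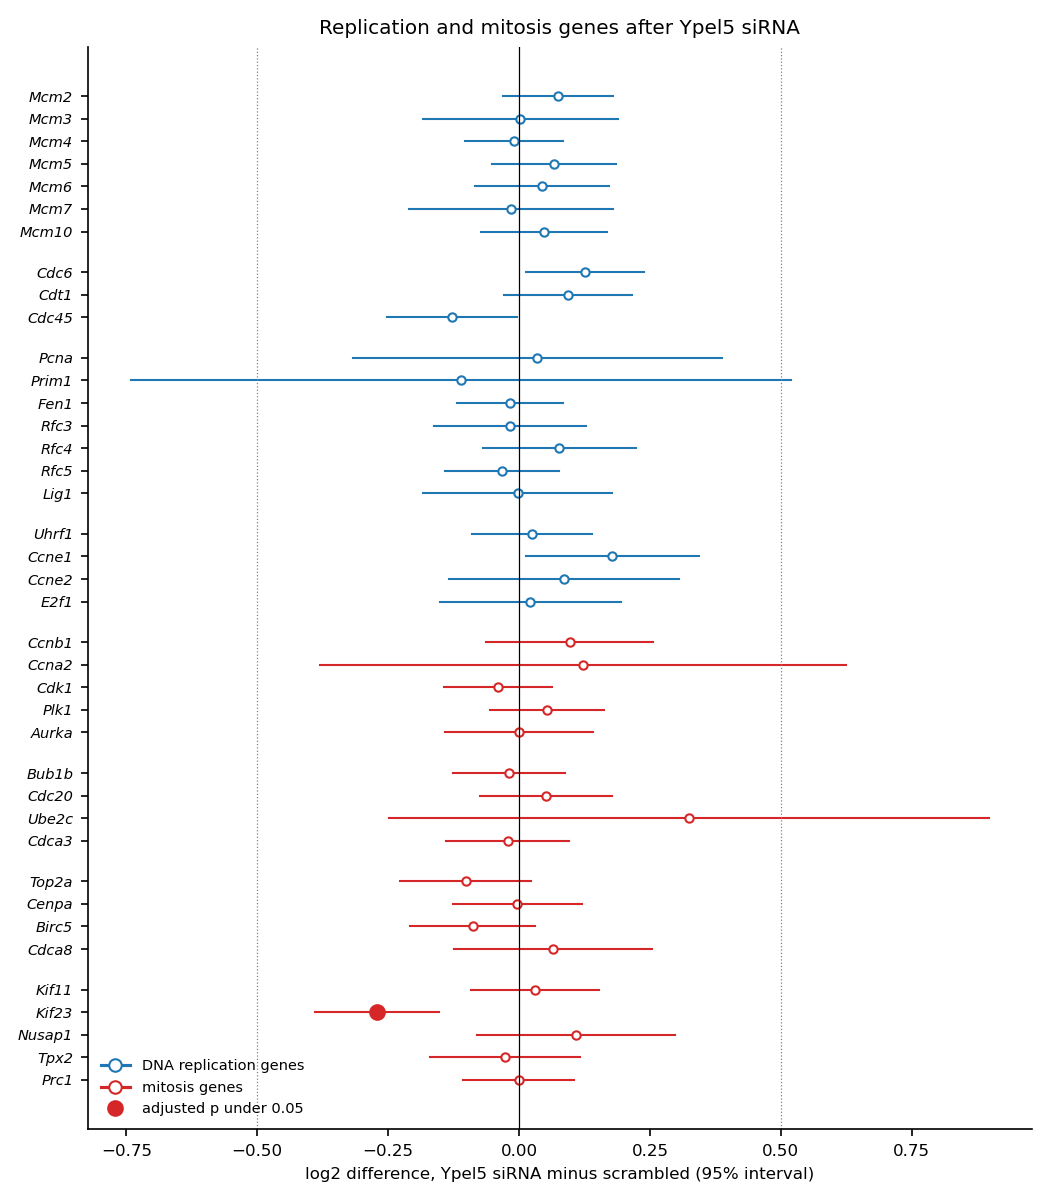
Log2 difference, Ypel5 siRNA minus scrambled, of 39 genes (circles) with 95% intervals (lines), grouped by role, with 4 arrays per group. Replication genes are blue, mitosis genes red, and the dotted lines mark log2 0.5 on either side of 0. Kif23, filled, is the gene with an adjusted p under 0.05, and the widest intervals are those of Prim1, Ube2c and Ccna2.

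Among genes of the MCM helicase, which unwinds DNA at the fork, and Mcm10, 0 of 7 passed the test. Their differences lay between -0.015 (Mcm7) and 0.074 (Mcm2). All 7 intervals lay within log2 0.25. The log2 intensities of Mcm2 were 11.51, 11.48, 11.55 and 11.45 on the scrambled and 11.56, 11.52, 11.59 and 11.61 on the Ypel5 siRNA arrays 1 to 4 (difference 0.074, SE 0.046, adjusted p = 0.406). The groups overlapped only between scrambled array 3 and Ypel5 siRNA array 2. For Mcm5 they were 13.75, 13.77, 13.63 and 13.68 against 13.85, 13.77, 13.72 and 13.77 (difference 0.066, SE 0.052, adjusted p = 0.521). Here the groups overlapped as well. Mcm10, which helps to activate the loaded helicase, differed by 0.048.

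Of 3 measured genes of origin licensing and firing 0 passed, and Cdc6 and Cdc45 were at an unadjusted p under 0.05 in opposite directions. Cdc6, which loads the helicase at origins, read 10.75, 10.65, 10.77 and 10.74 on the scrambled and 10.87, 10.90, 10.78 and 10.87 on the Ypel5 siRNA arrays. Every Ypel5 siRNA array lay above every scrambled array by a narrow margin, but the difference of 0.13 (SE 0.049) had an adjusted p of 0.186. Cdc45, a subunit of the active helicase, lay the other way, at 10.28, 10.28, 10.24 and 10.39 against 10.16, 10.18, 10.09 and 10.24. Ypel5 siRNA array 4 overlapped the lowest scrambled array, and the difference of -0.13 (SE 0.054) had an adjusted p of 0.219. The loading factor gene Cdt1 differed by 0.093 (SE 0.053, adjusted p = 0.371).

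Of the 7 measured genes of the polymerase, clamp and lagging strand, 0 passed. Pcna, the sliding clamp, read 9.88, 9.35, 9.82 and 9.83 on the scrambled and 9.62, 9.54, 9.76 and 10.11 on the Ypel5 siRNA arrays, with scrambled array 2 the lowest of the 8. Its difference of 0.035 (SE 0.15, adjusted p = 0.931) became -0.088 without that array and -0.082 without Ypel5 siRNA array 4, so it had no settled sign. The clamp loader gene Rfc4 was at 11.57, 11.36, 11.60 and 11.53 against 11.56, 11.60, 11.54 and 11.67 (difference 0.077, SE 0.064, adjusted p = 0.547). Its partner Rfc5 was at 11.17, 11.11, 11.21 and 11.20 against 11.09, 11.20, 11.15 and 11.11 (difference -0.032, SE 0.048, adjusted p = 0.746). The groups overlapped in both. Rfc3, the flap endonuclease gene Fen1 and the ligase gene Lig1 differed by -0.018, -0.017 and -0.0027.

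The regulators of entry into S phase gave the largest difference among replication genes, and 0 of 4 passed. Ccne1, cyclin E1, read 9.54, 9.57, 9.83 and 9.73 on the scrambled and 9.84, 9.88, 9.90 and 9.78 on the Ypel5 siRNA arrays (difference 0.18, SE 0.072, adjusted p = 0.198). Scrambled array 3 lay above Ypel5 siRNA array 4, so the groups overlapped. Ccne2, cyclin E2, was at 10.08, 9.82, 9.78 and 9.93 against 10.05, 9.87, 9.84 and 10.18 (difference 0.085, SE 0.096, adjusted p = 0.671). E2f1, the activator of many replication genes, was at 11.60, 11.68, 11.46 and 11.74 against 11.58, 11.71, 11.54 and 11.73 (difference 0.022, SE 0.076, adjusted p = 0.904). The groups overlapped for both genes. Uhrf1, which helps to copy DNA methylation after replication, differed by 0.024.

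Cyclins and kinases of mitosis had 0 of 5 measured genes past the threshold. Ccnb1, cyclin B1, read 11.98, 11.98, 12.12 and 12.14 on the scrambled and 12.21, 12.03, 12.10 and 12.26 on the Ypel5 siRNA arrays (difference 0.097, SE 0.070, adjusted p = 0.485). Cdk1, its partner kinase, was at 12.88, 12.86, 12.86 and 12.77 against 12.82, 12.83, 12.78 and 12.78 (difference -0.040, SE 0.045, adjusted p = 0.671). The groups overlapped for both partners. Plk1, a kinase needed for spindle assembly and cytokinesis, was at 12.47, 12.38, 12.42 and 12.35 against 12.51, 12.42, 12.42 and 12.46 (difference 0.053, SE 0.048, adjusted p = 0.578). Aurka, the Aurora kinase of the spindle poles, differed by 0.00024 (SE 0.062).

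Of 4 measured genes of the spindle checkpoint and the anaphase-promoting complex, 0 passed. Ube2c had the largest difference of all 39 genes but also a wide spread, at 7.68, 7.32, 7.67 and 7.93 on the scrambled and 7.40, 7.71, 8.19 and 8.60 on the Ypel5 siRNA arrays. The lowest Ypel5 siRNA array lay below 3 of the 4 scrambled ones, and the difference of 0.32 (SE 0.25) had an adjusted p of 0.514. Cdc20, the activator of the complex, was at 12.63, 12.57, 12.69 and 12.70 against 12.77, 12.60, 12.72 and 12.70 (difference 0.051, SE 0.055, adjusted p = 0.657). The checkpoint kinase gene Bub1b differed by -0.019 and Cdca3, which promotes mitotic entry, by -0.022.

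Genes for chromosome structure and centromeres likewise had 0 of 4 past the threshold. Top2a, the topoisomerase that untangles sister chromatids, read 11.76, 11.80, 11.82 and 11.80 on the scrambled and 11.79, 11.74, 11.66 and 11.59 on the Ypel5 siRNA arrays. Ypel5 siRNA array 1 lay among the scrambled arrays and the other 3 below them (difference -0.10, SE 0.055, adjusted p = 0.339). Birc5, survivin of the chromosomal passenger complex, was at 12.70, 12.82, 12.77 and 12.73 against 12.62, 12.70, 12.74 and 12.60 (difference -0.089, SE 0.052, adjusted p = 0.380), and the groups overlapped. Cdca8, another passenger subunit, differed by 0.065 and the centromeric histone gene Cenpa by -0.0032.

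Kif23 was the member called lower. Its single probe read 11.20, 11.15, 11.29 and 11.23 on the scrambled and 10.92, 10.98, 11.00 and 10.88 on the Ypel5 siRNA arrays, so all 4 Ypel5 siRNA arrays lay below all 4 scrambled ones. The means were 11.22 ± 0.060 and 10.95 ± 0.056 (SD, n = 4 each), a difference of -0.27 (SE 0.052, 95% interval -0.39 to -0.15, limma adjusted p = 0.0255). In a limma fit over all probes Kif23 had an adjusted p of 0.129. The other midzone and spindle genes did not pass. Prc1, which bundles midzone microtubules, differed by -0.00086 (SE 0.046), the spindle motor gene Kif11 by 0.030 and Tpx2, an activator of Aurora A, by -0.027. Nusap1, a spindle-associated protein, read 12.04, 11.74, 11.98 and 12.13 against 12.01, 12.08, 12.10 and 12.13 (difference 0.11, SE 0.083, adjusted p = 0.506), with scrambled array 2 the lowest. Leaving out a single array ended the call of Kif23 in 6 of 8 cases (all but scrambled array 2 and Ypel5 siRNA array 3), with adjusted p between 0.0579 and 0.0710, while the difference stayed between -0.29 and -0.24. Scaled to a common array median alone it was -0.23 (adjusted p = 0.124), and without both arrays of replicate 1, those with the coarser detection p-values, it was -0.27 (adjusted p = 0.135).

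**Figure D3:**
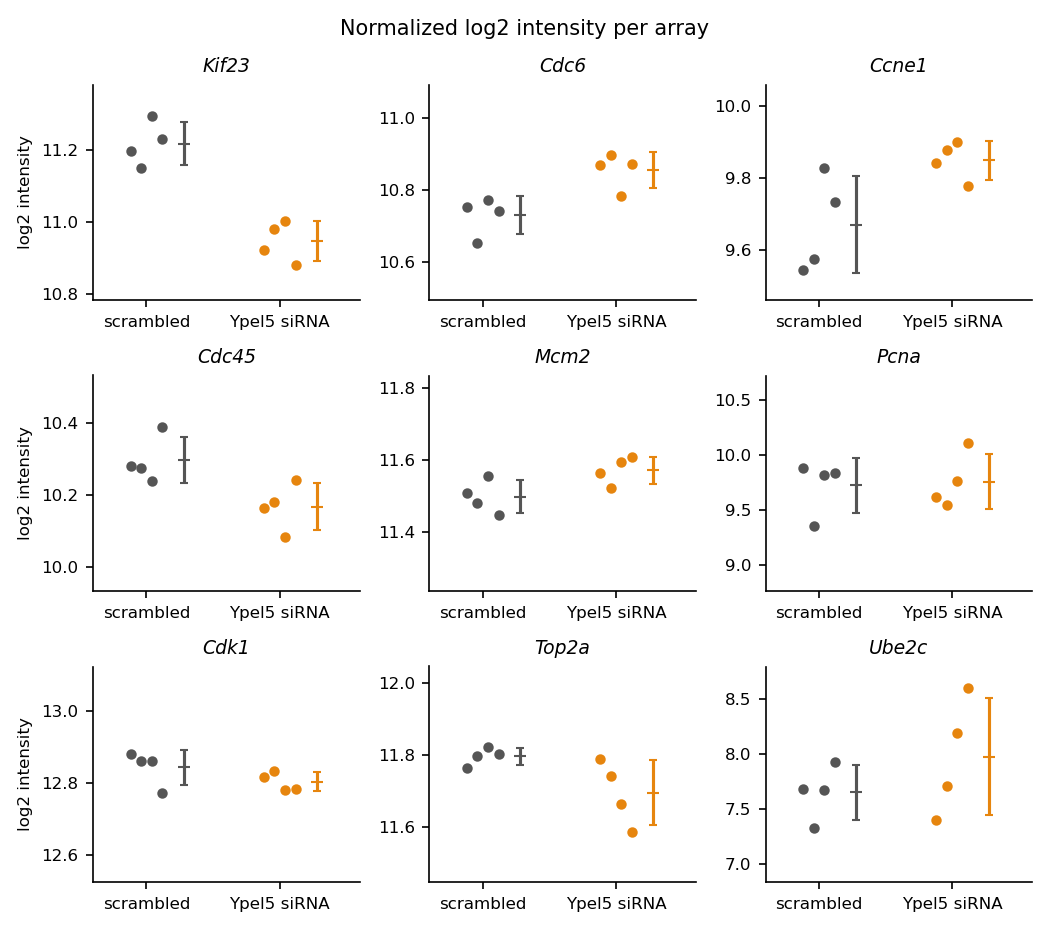
Normalized log2 intensity of 9 genes on each array (points) with mean and SD beside them, for 4 scrambled (grey) and 4 Ypel5 siRNA arrays (orange). The vertical axes span the same range except for the wider ones of Pcna and Ube2c. The groups are apart for Kif23 and, narrowly, for Cdc6, and overlap for the others.

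**Figure D4:**
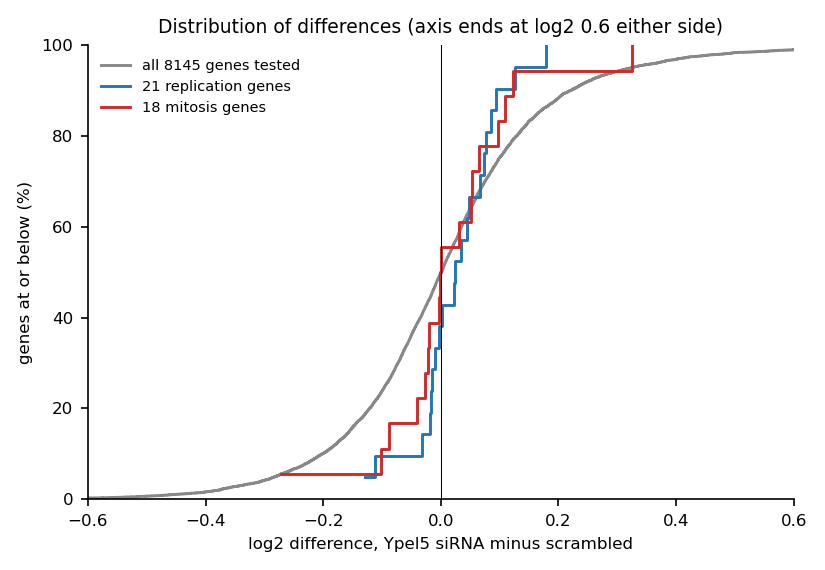
Cumulative share of genes (vertical axis, %) at or below each log2 difference, Ypel5 siRNA minus scrambled (horizontal axis), for all 8145 genes tested (grey), 21 replication genes (blue) and 18 mitosis genes (red). Both gene sets rise more steeply around 0 than all genes, with medians of 0.024 and -0.00031, and the ends of the red line are Kif23 and Ube2c.

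**Figure D5:**
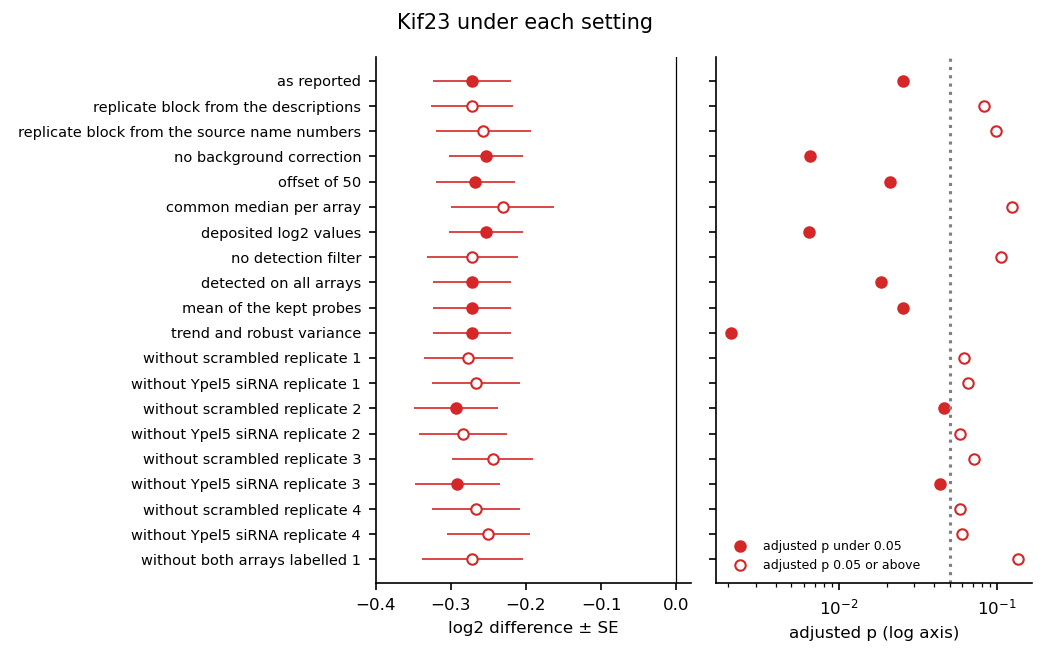
Kif23 as reported and under 19 alternatives, with its log2 difference and SE (left) and its adjusted p on a log axis (right, dotted line at 0.05). The difference lies between -0.29 and -0.23 throughout, and 8 of the 19 alternatives keep the adjusted p under 0.05 (filled).

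Where a gene had several detected probes, these gave 0 further calls in the limma fit over all probes. This held for 11 of the 39 genes with 30 probes between them, none with an unadjusted p under 0.05 in that fit (smallest 0.0774, adjusted 0.532). The same fit did not call Kif23 (adjusted 0.129), and it gave Cdc6 an unadjusted p of 0.0694, against 0.0326 in the fit over genes. It therefore cannot show whether a dimmer probe would have passed in the fit over genes. In 6 of the 11 (Ccnb1, Cdc20, Mcm4, Mcm10, Nusap1 and Uhrf1) at least 1 dimmer probe had the opposite sign to the brightest one. The 2 dimmer probes of Mcm4 differed by -0.14 and 0.17 and that of Uhrf1 by -0.32, against -0.0098 and 0.024 for the brightest. All dimmer probes of Cdc20 lay between -0.090 and -0.058, against 0.051 for the brightest. For Mcm6, Rfc4, Lig1, Birc5 and Cdca3 all probes had the same sign. The size still differed in Lig1, whose dimmer probes were at -0.26 and -0.12, against -0.0027 for the brightest. With the mean of the probes the median of the replication genes was 0.0057 in place of 0.024.

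Across arrays the sets stayed within narrow bounds. The median deviation of the replication genes from their own 8-array means was 0.015, -0.025, -0.016 and -0.014 on the scrambled arrays 1 to 4 and 0.0028, 0.0038, -0.0090 and 0.036 on the Ypel5 siRNA arrays. That of the mitosis genes was -0.0042, -0.045, 0.014 and 0.043 on the scrambled and 0.0035, -0.0058, -0.00030 and -0.0040 on the Ypel5 siRNA arrays. The groups overlapped in both sets. Scrambled array 2 was the lowest in both, and the highest was Ypel5 siRNA array 4 for replication and scrambled array 4 for mitosis genes.

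Further genes of the same pathways, in lists likewise chosen with earlier results known, were called at shares near the 4.95% of all genes. Of 35 other replication genes tested 0 rose and 2 fell (5.71%), with a median difference of -0.0095. These were Orc5, a subunit of the origin recognition complex (difference -0.32, SE 0.070, adjusted p = 0.0396), and Pold3, a subunit of DNA polymerase delta (difference -0.26, SE 0.054, adjusted p = 0.0344). Of 32 other mitosis genes 0 rose and 1 fell (3.1%, median 0.017), the checkpoint gene Bub3 (difference -0.29, SE 0.060, adjusted p = 0.0326). Of 17 genes of G1 control and kinase inhibitors 1 rose and 0 fell (5.88%, median -0.014), the E2F restraining gene Rb1. It read 9.30, 9.23, 9.27 and 9.33 on the scrambled and 9.68, 9.47, 9.64 and 9.64 on the Ypel5 siRNA arrays (difference 0.33, SE 0.059, adjusted p = 0.0208). The groups did not overlap in any of these 4 genes, but the genes were picked by adjusted p from the same arrays, so this adds no support. Groups did not overlap for 6 of the 35 other replication genes (17.1%), 1 of the 32 other mitosis genes (3.1%) and 3 of the 17 G1 control genes (17.6%). The share over all genes was 15.2%. Leaving out 1 array ended the calls in 7 of 8 cases for Orc5 and Pold3 and in 6 of 8 for Bub3 and Rb1, with adjusted p of up to 0.0960. They were lost as well without both arrays of replicate 1. At an unadjusted p under 0.05 there were 4 of the other replication genes (11.4%), 1 of the other mitosis genes (3.1%) and 7 of the 17 G1 control genes (41.2%, 4 higher and 3 lower), against 21.6% of all genes. No test of these shares was made.

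Regulators of these programmes were also read one by one. Cdkn1a, the kinase inhibitor p21, was at 12.81, 12.76, 12.84 and 12.77 on the scrambled and 13.05, 13.02, 13.05 and 12.85 on the Ypel5 siRNA arrays. The groups did not overlap, as in 15.2% of all genes, and the difference of 0.20 (SE 0.057) had an adjusted p of 0.0911, between 0.0108 and 0.306 over the alternatives, of which 5 of 19 were under 0.05. Cdk2, also without overlap, differed by 0.20 (limma adjusted p = 0.0713), E2f7 by 0.37 (adjusted p = 0.0911) and Cdk6 by -0.52 (adjusted p = 0.121). Of 11 E2F, DREAM and FOXM1 genes 0 passed and 2 (18.2%) were at an unadjusted p under 0.05 (median -0.015), against 21.6% of all genes. Foxm1, an activator of mitosis genes, differed by -0.11 (SE 0.048, adjusted p = 0.244), the B-MYB gene Mybl2 by 0.045 (adjusted p = 0.651) and E2f4 by -0.015 (adjusted p = 0.945). Ccnd1, cyclin D1, differed by 0.060 (adjusted p = 0.524) and the inhibitor gene Cdkn1b by -0.045 (adjusted p = 0.875), and Myc was detected on at most 1 array. Of 15 replication stress genes 0 passed, with 1 (6.67%) at an unadjusted p under 0.05 (median 0.011), against the same 21.6%.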

How the data were processed

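The deposited non-normalized table gives a linear intensity and a detection p-value for 25697 probes on 8 arrays, per the file headers. The deposited log2 values were normalized by the authors, and the submitters' processing notes name RMA. They served as an alternative. The genome build is not given in the sources used here.

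Intensities were corrected and quantile normalized with neqc (limma 3.58.1, R 4.3.3, offset 16, negative controls inferred from detection p-values). A probe was kept (11364) where 4 or more of the 8 arrays gave it a detection p below 0.05, and the kept probe of highest mean raw intensity stood for its gene. Names were updated through a RefSeq table (GRCm38.p6), with 3875 probes renamed by synonym and 127 by gene identifier, while 961 kept the file's name. Aim1, an ambiguous older name of Aurkb, was not used.

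Groups were compared with limma (lmFit, eBayes, two-sided, Benjamini-Hochberg over 8145 genes), without a replicate block. The fit was tested on simulated data in which 200 of 8145 genes were changed, 100 per size. It recovered 66% of changes of log2 0.5 and 90% of changes of log2 1. Of its 168 calls 12 were false. The members and lists were chosen with earlier results of these data known. Values per array are given for members past the threshold, the 2 members of each role with the smallest p, and E2f1, Pcna and Cdk1. From other lists, genes past the threshold and 7 fixed regulators are named, with Cdk2, Cdk6 and E2f7 added beside Cdkn1a. Alternatives changed block, background, offset, normalization, filter, probes, variance model and arrays.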

Additional observations from a re-analysis of the deposited data

Results flagged for a closer look

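Among 78 groups of 4 arrays checked (39 genes in each siRNA group), 2 held an array far from the other 3. Chance alone would give about 1 in 20 groups, a share that 2 of 78 does not exceed. Pcna read 9.35 on scrambled array 2, against 9.82 to 9.88 on the other scrambled arrays. Aurka read 11.99 on Ypel5 siRNA array 4, against 12.10 to 12.12 on the other Ypel5 siRNA arrays. The part of either array in other results was not tested beyond leaving each array out.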

How the results depend on the processing

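Over 19 alternatives the replication genes had 0 calls and 36 of 39 intervals lay within log2 0.5 wherever 1 array was left out. The count of mitosis genes called was 1 in 8 alternatives and 0 in 11. These 11 were both replicate blocks, a common median per array, no detection filter, leaving out both arrays of replicate 1, and 6 of the 8 single arrays (range 0 to 1). The number of all genes called, 403, was 670 without background correction, 671 with the deposited log2 values, 774 with trend and robust variance, 235 with a common median, 144 without the detection filter, 74 without both arrays of replicate 1 (101 distinct detection p-values each, against 749 to 762 on the others) and between 181 and 270 without 1 array. The higher and lower calls, 241 and 162, were 205 and 30 with a common median, where the median of all genes was 0.037. Calls in the other lists, 4, were 7 without background correction, with the deposited values and with trend and robust variance, 1 with a common median, 0 without the filter or without both arrays of replicate 1, and 0 to 2 without 1 array. The median of the replication genes was 0.0057 with the mean of probes, 0.054 without both arrays of replicate 1 and 0.020 to 0.047 without 1 array. That of the mitosis genes was 0.028 with a common median and -0.0088 to 0.023 without 1 array.

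With a replicate block from the descriptions 107 genes, 0 mitosis members and 0 genes of the other lists passed (Kif23 adjusted p = 0.0821), and with a replicate block from the source name numbers, which repeat within each group, 140, 0 and 1, with a replication median of 0.045 (Kif23 adjusted p = 0.0983). Deviations of arrays with the same number correlated at 0.039, -0.0035, -0.0015 and 0.18 across all genes. Those of arrays with different numbers correlated at -0.15 to 0.11. The value of replicate 4 lay above this range and the others within it, so over all genes the number was not shown to pair the arrays. Single members differed in this. With the block from the descriptions the SE fell from 0.28 to 0.092 for Prim1, from 0.22 to 0.079 for Ccna2 and from 0.25 to 0.16 for Ube2c. It also fell from 0.15 to 0.10 for Pcna and from 0.076 to 0.049 for E2f1. The SE rose from 0.046 to 0.051 for Mcm2, from 0.049 to 0.059 for Cdc6 and from 0.052 to 0.054 for Kif23. With this block 38 of the 39 intervals lay within log2 0.5 of 0. Without a block Prim1, Ccna2 and Ube2c had intervals beyond log2 0.5. Their mean raw intensities were 249, 266 and 401, where the array medians were 181 to 226. The parts of low signal and of the replicate number in their spread were not tested.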
